A study of Mus musculus with 12 samples.

Results

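The mitochondrial protein import machinery was taken as the rows of the expression table whose mouse Ensembl identifier maps to a gene symbol of the Timm or Tomm series, or to Dnajc19, Samm50, Mtx1, Mtx2, Grpel1, Hspa9, Chchd4, Gfer, Pmpca or Pmpcb. This rule found 36 genes among the 23474 rows of the table, and it used no measured value. The table holds FPKM values, that is, fragments per kilobase of transcript scaled by the number of mapped fragments, for epididymal white adipose tissue (eWAT) of male C57BL/6J mice, 17 weeks old, with 3 libraries in each of 4 groups and 1 mouse per library. All mice received their diets for 12 weeks from the age of 5 weeks, in groups of 10. The groups were a normal diet (ND), a high-fat diet (HFD), the HFD with 0.25% (w/w) of an ethanol extract of green tea (GT), and the HFD with 3% (w/w) of Taeeumjowuitang (TJ), a Korean herbal formula made from several plants. The GT and TJ mice thus also carried the HFD, and whole tissue was used, so that fewer cells of a type and less RNA per cell cannot be told apart in any value given here.

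Most mitochondrial proteins are encoded in the nucleus, made in the cytosol and brought in as unfolded chains. The TOM complex is the gate of the outer membrane, the SAM complex inserts barrel proteins there, and the small TIM proteins chaperone hydrophobic chains between both membranes. The TIM23 complex and its PAM motor carry chains with a presequence into the matrix, where the processing peptidase removes the presequence. The TIM22 complex inserts carrier proteins into the inner membrane, and the MIA relay of Chchd4 and Gfer traps small cysteine-rich proteins by disulfide bonds. In white adipocytes mitochondria supply energy and precursors for fat synthesis, and their protein content depends on this route.

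Of the 36 genes, 9 belong to the TOM complex, 7 to the small TIM chaperones, 5 to the TIM23 complex, 4 to the PAM motor, 3 to the SAM complex, and 2 each to the TIM22 complex, the MIA relay and the processing peptidase. The other 2 were Tomm34, a cytosolic cochaperone of import, and Tomm6os, a transcript antisense to Tomm6. Of these, 33 passed the filter of a mean of 1 FPKM in the comparisons of TJ, GT and HFD. Timm8a2, Tomm20l and Tomm6os did not pass it there.

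The library of ND replicate 1 stood apart before any comparison was made. Its rank correlation with the other libraries was 0.666 to 0.829, and its summed FPKM was 1002765 against 527904 to 725245 elsewhere. A list of 16 genes of testis germ cells summed to 100358 FPKM in it, against 9.2 to 178 FPKM in 9 of the others, 2129 in HFD replicate 1 and 3134 in ND replicate 3. A list of 12 epididymis genes summed to 26730 FPKM in ND replicate 1, to 1292 in HFD replicate 2, of which Crisp1 made up 1172, and to at most 50.8 in the others. The adipocyte list of 12 genes in ND replicate 1, with none at 0, summed to 7571 FPKM, whereas the other libraries held 18052 to 72061. Estimated depth was about 9.33M fragments in this library and 13.5M to 19.5M in the others, values too approximate for counting intervals. Results of HFD against ND that turned on it are given with and without it.

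TJ against HFD was the comparison with import genes past the test. A gene was called where limma on log2(FPKM + 1) gave a Benjamini-Hochberg adjusted p under 0.05 over all tested genes together with a fold change of at least 1.5. Timm13, Timm10b, Tomm6 and Timm17a rose and Pmpca fell, 5 of 33 genes, and Timm21 and Tomm70a passed the adjusted p but not the fold. Of all 12807 genes tested, 18.5% were called, so the share of import genes called was not above that of the table. By direction, 4 import genes were called higher against a background of 7.41%, and 1 was called lower against 11.1%. At an unadjusted p under 0.05 there were 14 of the 33, beside 41.4% of all tested genes.

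Of the 33 genes, 26 had a log2 fold change above 0 and 7 below it, with a median of 0.33. Of all tested genes 40.8% were above 0, with a median of −0.14. Between the groups, 14 import genes did not overlap and were higher in all 3 TJ libraries (background 20.1%), and 3 were lower (background 31.4%). Every such separation of 3 libraries from 3 has a two-sided exact permutation p of 0.1, the smallest this design allows. The level of the median depended on the scaling, since the FPKM of TJ replicate 2 summed to 725245 and those of the HFD libraries to 527904 to 552100. With all libraries brought to equal sums 19 import genes were above 0 and 14 below, beside 27.9% of all genes above 0. The import median was then 0.09 and that of all genes −0.36. The distance between these medians was 0.47 as deposited and 0.44 after scaling. Scaling shifts all genes of a library nearly alike, so it could hardly change this distance and does not test it. The distance was 0.40 with quantile normalization and 0.39 with the trend with transcript length removed. Leaving out TJ replicate 2 gave 0.32, and leaving out replicate 3 of that group gave 0.68. With equal sums the calls of import genes split into 3 higher and 2 lower. They were 6 and 1 with median-of-ratios scaling, 10 and 1 with quantile normalization, and 7 and 0 once the trend with transcript length was removed. Over all tested genes the calls were 494 higher and 1886 lower with equal sums and 1285 and 1082 with median-of-ratios scaling. They were 1542 and 1121 with quantile normalization and 1451 and 933 with the length trend removed.

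**Figure D1:**
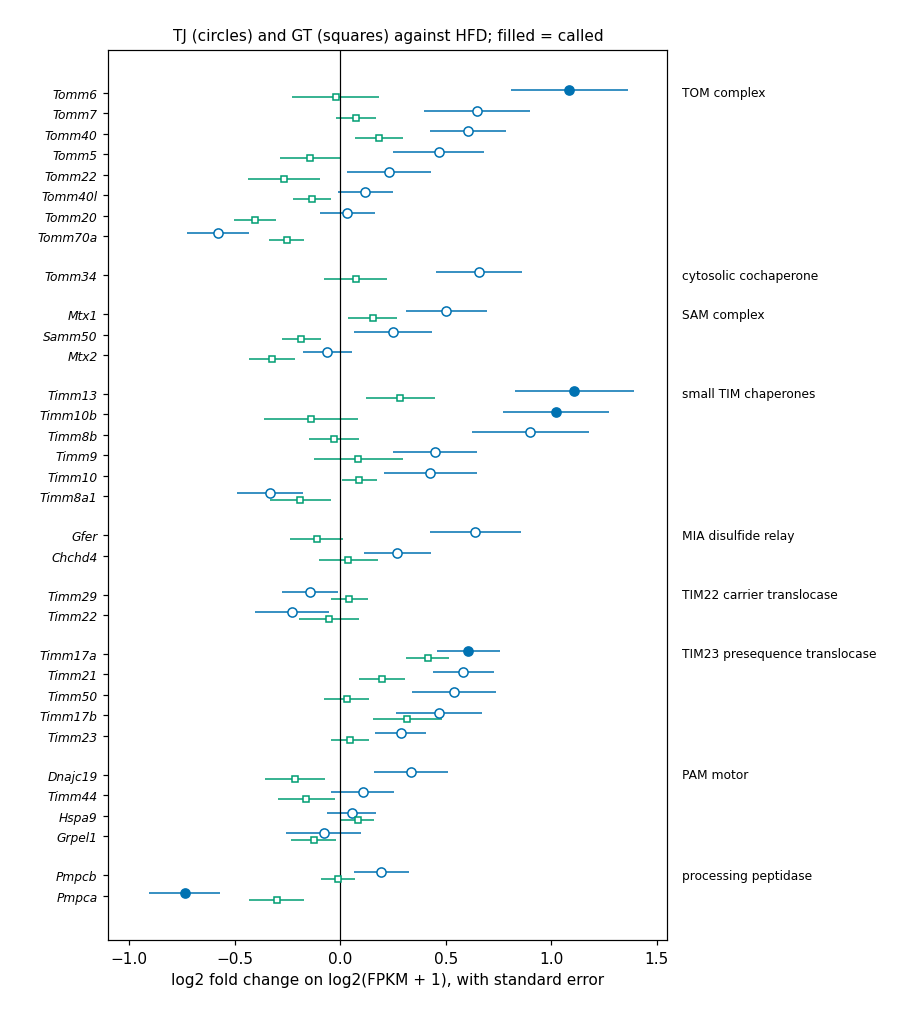
Log2 fold changes (horizontal axis, on log2(FPKM + 1), with standard errors) of the 33 tested import genes for TJ against HFD (circles) and GT against HFD (squares), grouped by complex. The 5 filled circles are the called genes, from Timm13 at 1.11 to Pmpca at −0.74, and no square is filled.

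The small TIM chaperones were the class with the highest median log2 fold change for TJ against HFD. These proteins form hexamers that shield carrier and barrel precursors, and 5 of the 6 tested were higher in TJ, with 2 called and a median log2 fold change of 0.67. Timm13 (ENSMUSG00000020219, GRCm38 chr10:80899450-80900969, minus strand) is the partner of Timm8 proteins in one such hexamer. It stood at 25.0, 17.9 and 24.9 FPKM in the HFD libraries and at 46.4, 73.8 and 34.9 FPKM in the TJ libraries. All TJ values lay above all HFD values, and the log2 fold change was 1.11 (SE 0.28, limma adjusted p = 0.0398). The ND libraries 2 and 3 held 20.6 and 18.4 FPKM, close to the HFD range, whereas ND replicate 1 held 170.

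Timm10b (ENSMUSG00000089847, chr7:105640056-105643637, plus strand), the small TIM subunit bound to the TIM22 complex, gave a similar picture. Its levels were 30.7, 20.0 and 30.5 FPKM in HFD and 51.9, 74.1 and 42.9 FPKM in TJ, without overlap. The log2 fold change was 1.02 (SE 0.25, limma adjusted p = 0.0380). The gene overlaps Arfip2 on the opposite strand and Gm45799 on its own, and the libraries do not mark strand, so reads of such neighbours cannot be told apart.

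Timm8b, the widely expressed partner of Timm13, reached 73.2, 130 and 63.3 FPKM in TJ against 52.5, 43.6 and 39.4 FPKM in HFD. The groups did not overlap, but with a log2 fold change of 0.90 and a limma adjusted p of 0.0578 it was not called. Its paralogue Timm8a1 (ENSMUSG00000048007, on chromosome X) was the one member of the class below 0. Timm8a1 stood at 5.67, 4.76 and 4.84 FPKM in HFD and 4.52, 3.74 and 3.28 FPKM in TJ, with a log2 fold change of −0.33 (SE 0.16, limma adjusted p = 0.151). Timm9 and Timm10, which build the major hexamer of the class, had log2 fold changes of 0.45 and 0.43 with overlapping groups.

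The TOM complex had 7 of 8 tested genes above 0, with 1 called and a median log2 fold change of 0.35. Tomm6 (ENSMUSG00000033475, chr17:47686646-47688386, minus strand), one of the small subunits that steady the pore, was the called gene. It stood at 28.6, 17.4 and 24.3 FPKM in HFD and at 48.8, 70.2 and 36.1 FPKM in TJ, so that the groups did not overlap. Its log2 fold change was 1.08 (SE 0.28, limma adjusted p = 0.0401). Tomm6os, which overlaps it on the other strand, held 0.332 to 0.668 FPKM in HFD and 0.732 to 1.68 in TJ, and Usp49 overlaps it as well.

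The other small subunits pointed the same way without a call. Tomm7 was at 47.0, 43.3 and 42.4 FPKM in HFD and at 65.1, 103 and 50.8 FPKM in TJ (log2 fold change 0.65, limma adjusted p = 0.0984), and Tomm5 had 0.47 with overlapping groups. Tomm40, the pore itself, had 23.0, 17.6 and 21.0 FPKM in HFD and 30.0, 39.1 and 26.7 FPKM in TJ. Here too the groups were apart, with a log2 fold change of 0.60 (SE 0.18, limma adjusted p = 0.0544).

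Among the receptors, the value below 0 was that of Tomm70a. This gene (ENSMUSG00000022752, chr16:57121703-57156705, plus strand), the receptor for carrier precursors handed over by cytosolic chaperones, was at 27.7, 29.5 and 26.9 FPKM in HFD and at 19.3, 15.4 and 20.9 FPKM in TJ. Every TJ value lay below every HFD value, and the log2 fold change of −0.58 (SE 0.15, limma adjusted p = 0.0388) fell just short of the fold required for a call. It was −0.82 with equal sums, where the gene was called, and −0.17 with the length trend removed (limma adjusted p = 0.222). Tomm20, the receptor for presequences, had a log2 fold change of 0.03 with overlapping groups, and Tomm22, the central receptor, had 0.23. The sign for Tomm20 turned with the scaling to equal sums (−0.21), without TJ replicate 2 (−0.03) and without HFD replicate 1 (−0.0049). With the length trend removed Tomm20 was at 0.38. Tomm34, the cytosolic cochaperone, was at 25.5, 17.3 and 19.1 FPKM in HFD and at 31.0, 40.8 and 27.6 FPKM in TJ, with a log2 fold change of 0.66 (SE 0.20, limma adjusted p = 0.0582).

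**Figure D2:**
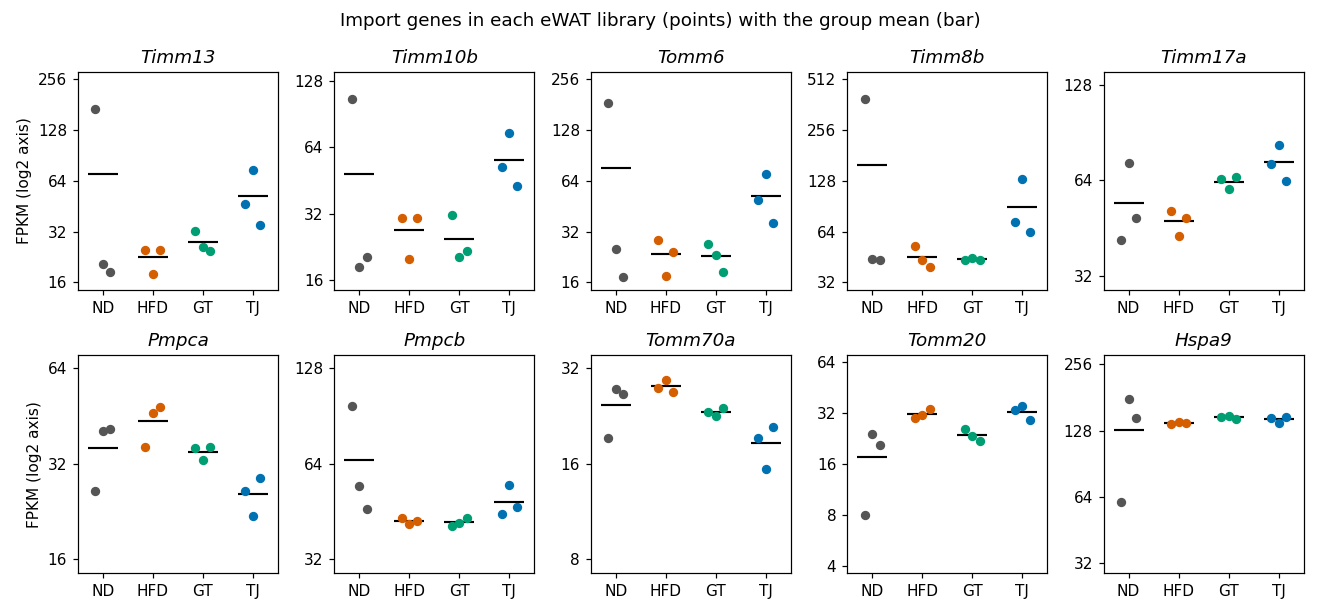
FPKM on a log2 axis of 10 import genes in each of the 12 libraries, with points for libraries in replicate order from left to right and a bar for the arithmetic mean of each group. Timm13, Timm10b, Tomm6 and Timm8b are highest in ND replicate 1 and otherwise in the TJ group, while Pmpca and Tomm70a are lowest in TJ among the 3 groups on the HFD.

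All 5 tested genes of the TIM23 complex had log2 fold changes above 0 in TJ against HFD, with a median of 0.54 and 1 call. Timm17a (ENSMUSG00000062580, chr1:135295213-135313778, minus strand), a channel subunit, was at 51.1, 42.6 and 48.7 FPKM in HFD and at 72.3, 82.9 and 63.9 FPKM in TJ. The groups were apart, and the log2 fold change was 0.61 (SE 0.15, limma adjusted p = 0.0379). Timm17a had the longest transcript of the tested import genes, 7280 nt. With equal sums its value was 0.36 and it was not called.

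Timm21, which links TIM23 to the outer membrane and to the respiratory chain, was at 9.56, 8.03 and 9.40 FPKM in HFD and at 12.5, 16.3 and 13.2 FPKM in TJ (log2 fold change 0.58, limma adjusted p = 0.0387). It passed the adjusted p but not the fold. Timm23, the channel that gives the complex its name, was at 60.7, 61.5 and 67.6 FPKM in HFD and at 73.7, 81.3 and 76.9 FPKM in TJ. These groups did not overlap either, with a log2 fold change of 0.29 (SE 0.12, limma adjusted p = 0.123). The value for Timm23 was 0.04 with equal sums and 0.13 with the length trend removed. Timm50, the receptor on the inner membrane, and Timm17b, the paralogue of Timm17a, had log2 fold changes of 0.54 and 0.47.

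The motor that pulls chains into the matrix moved little. The median log2 fold change of its 4 genes was 0.08, and none was called. Hspa9, the mitochondrial Hsp70 at the centre of the motor, held 137, 140 and 139 FPKM in HFD and 145, 139 and 148 FPKM in TJ. Its log2 fold change was 0.05 (SE 0.12), and it took a negative sign with quantile normalization (−0.06) and with equal sums (−0.20). Dnajc19, the J protein that stimulates Hspa9, was at 34.4, 33.2 and 33.1 FPKM in HFD and at 45.5, 51.0 and 33.1 FPKM in TJ, with a log2 fold change of 0.33. Grpel1, the nucleotide exchange factor, was at 17.0, 14.6 and 17.1 FPKM in HFD and at 12.6, 19.7 and 14.3 FPKM in TJ. Its log2 fold change of −0.08 changed sign under 4 alternatives, and that of Timm44, the tether of the motor, was 0.10.

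The TIM22 complex was the class with both genes below 0. Timm22, its channel, held 16.0, 11.1 and 15.5 FPKM in HFD and 10.9, 13.7 and 11.1 FPKM in TJ, with a log2 fold change of −0.23 (SE 0.18, limma adjusted p = 0.340). Timm29, its link to TOM, held 14.1, 14.8 and 13.6 FPKM in HFD and 12.8, 11.1 and 14.5 FPKM in TJ, with −0.14. Both pairs of groups overlapped, and Timm29 turned positive with quantile normalization (0.02) and with the length trend removed (0.05).

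In the SAM complex Mtx1 had the largest value. It was at 39.9, 32.5 and 37.8 FPKM in HFD and at 47.1, 68.0 and 44.5 FPKM in TJ, without overlap (log2 fold change 0.50, limma adjusted p = 0.0961). Samm50, the barrel of the complex, was at 61.9, 53.8 and 61.0 FPKM in HFD and at 59.7, 90.5 and 63.5 FPKM in TJ (log2 fold change 0.25). Mtx2, the other metaxin, was at 29.6, 33.3 and 31.1 FPKM in HFD and at 29.9, 29.1 and 30.8 FPKM in TJ (log2 fold change −0.06). The signs of Samm50 and Mtx2 turned with the scaling, to −0.0011 with equal sums for Samm50 and to 0.08 with median-of-ratios scaling for Mtx2. With the length trend removed Samm50 was at 0.57.

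In the MIA relay, Gfer, the oxidase that recharges Chchd4, was at 8.71, 6.44 and 8.28 FPKM in HFD and at 10.8, 17.4 and 10.6 FPKM in TJ. The groups did not overlap, with a log2 fold change of 0.64 (SE 0.22, limma adjusted p = 0.0713). Chchd4, the receptor that passes on the disulfide bonds, was at 12.2, 9.77 and 12.9 FPKM in HFD and at 13.3, 16.6 and 12.8 FPKM in TJ. Its groups overlapped, and its log2 fold change was 0.27.

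The processing peptidase, a dimer of the substrate-binding subunit Pmpca and the catalytic subunit Pmpcb, had its subunits on opposite sides of 0. Pmpca (ENSMUSG00000026926, chr2:26389339-26397122, plus strand) fell from 36.1, 46.3 and 48.3 FPKM in HFD to 26.3, 21.9 and 28.7 FPKM in TJ, a log2 fold change of −0.74 (SE 0.17, limma adjusted p = 0.0326). It was the lowest value of the 33 genes, and the groups did not overlap. Pmpcb (ENSMUSG00000029017, chr5:21737141-21757152, plus strand) was at 42.9, 41.4 and 42.1 FPKM in HFD and at 44.3, 54.6 and 46.8 FPKM in TJ. These groups were apart in the other direction, with a log2 fold change of 0.19 (SE 0.13, limma adjusted p = 0.281) that was −0.05 with equal sums. Pmpca overlaps Inpp5e on the opposite strand.

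Ratios within a library do not depend on the scaling of that library, and 8 pairs of related subunits were compared in this way. Some pairs were partners in a complex and others paralogues. The ratios were not corrected for transcript length. Each ratio lower in TJ than in HFD without overlap had the longer transcript as numerator, and Gfer to Chchd4, which was higher, the shorter. With the length trend removed, log2 fold changes went from 0.12 to 0.45 for Tomm40l and from 0.60 to 0.55 for Tomm40. Those of Pmpca and Pmpcb went from −0.74 to −0.55 and from 0.19 to 0.14. The ratio of Pmpca to Pmpcb was 0.840, 1.12 and 1.15 in the HFD libraries, 0.883, 0.786 and 0.836 in the GT libraries and 0.595, 0.402 and 0.615 in the TJ libraries. TJ lay below both other groups without overlap, and its mean was 0.537 ± 0.118 (SD, n = 3) against 1.04 ± 0.17 in HFD (two-sided exact permutation p = 0.1, the smallest possible). The ratio of Tomm70a to Tomm20 was 0.580 ± 0.142 in TJ and 0.888 ± 0.0808 in HFD (SD, n = 3), again without overlap. That of Timm8a1 to Timm8b was 0.0475 ± 0.0170 in TJ and 0.113 ± 0.0083 in HFD (SD, n = 3), also without overlap.

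Further pairs were separated as well. In TJ the ratios of Timm22 to Timm23, Tomm40l to Tomm40 and Mtx2 to Mtx1 were 0.684, 0.706 and 0.679 times those in HFD, and Gfer to Chchd4 was 1.34 times that in HFD, each without overlap. In GT the ratios of Tomm40l to Tomm40 and Mtx2 to Mtx1 also lay below HFD without overlap, at 0.793 and 0.705 times, and for both of these TJ overlapped GT. TJ and GT did not overlap for Timm22 to Timm23 and Gfer to Chchd4, at 0.742 and 1.49 times GT. The ratio of Timm17b to Timm17a overlapped between the groups, with means of 0.125 ± 0.0249 in TJ and 0.134 ± 0.0311 in HFD (SD, n = 3). With an exact permutation p of at least 0.1 for each pair, no adjusted value over the 8 pairs can pass 0.05. How often ratios of other gene pairs separate was not computed. Of all single genes, 20.1% were higher and 31.4% lower in TJ than in HFD without overlap.

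**Figure D3:**
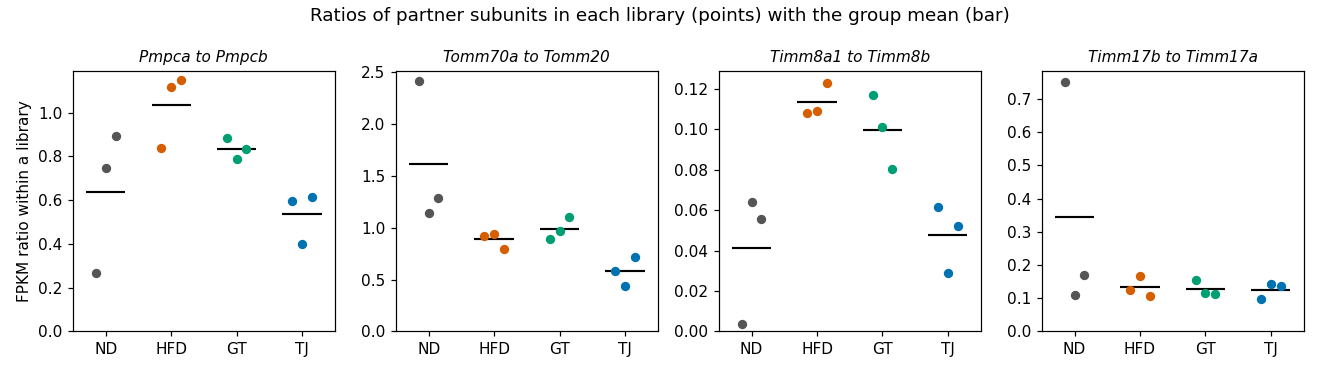
FPKM ratio of 4 pairs of partner subunits or paralogues (vertical axes from 0) in each library, with points for libraries in replicate order and a bar for the mean of each group. The ratios of Pmpca to Pmpcb, Tomm70a to Tomm20 and Timm8a1 to Timm8b are lower in the TJ libraries than in the HFD and GT libraries, and those of Timm17b to Timm17a overlap in these 3 groups.

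The RefSeq promoter windows (build GRCm38.p6, 250 bases before to 50 bases after the annotated start) are shown for Timm10b and Timm13, which were called higher, and for Pmpca and Pmpcb, partners with opposite signs. Capitals mark matches on either strand to CCGGAAG, a core of ETS family sites that GABP also binds, to GCGCANGCG, a core of the NRF1 site, and to ATGGCGG, a core of the YY1 site. No 2 of the marked matches overlap.
Timm10b, chr7:105640195-105640494, plus strand: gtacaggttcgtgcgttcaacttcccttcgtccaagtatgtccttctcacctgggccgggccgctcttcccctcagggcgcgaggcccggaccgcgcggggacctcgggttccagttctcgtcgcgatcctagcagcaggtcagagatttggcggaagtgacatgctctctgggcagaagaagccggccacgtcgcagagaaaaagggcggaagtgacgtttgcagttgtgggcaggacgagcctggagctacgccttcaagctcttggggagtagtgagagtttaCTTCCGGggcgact
Timm13, chr10:80900920-80901219, minus strand: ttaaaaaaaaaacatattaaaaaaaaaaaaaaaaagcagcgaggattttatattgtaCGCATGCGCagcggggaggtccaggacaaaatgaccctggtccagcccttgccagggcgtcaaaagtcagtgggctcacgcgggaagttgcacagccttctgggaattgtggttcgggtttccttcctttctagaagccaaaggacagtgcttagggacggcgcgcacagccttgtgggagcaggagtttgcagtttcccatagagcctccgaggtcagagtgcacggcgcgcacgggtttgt
Pmpca, chr2:26389098-26389397, plus strand: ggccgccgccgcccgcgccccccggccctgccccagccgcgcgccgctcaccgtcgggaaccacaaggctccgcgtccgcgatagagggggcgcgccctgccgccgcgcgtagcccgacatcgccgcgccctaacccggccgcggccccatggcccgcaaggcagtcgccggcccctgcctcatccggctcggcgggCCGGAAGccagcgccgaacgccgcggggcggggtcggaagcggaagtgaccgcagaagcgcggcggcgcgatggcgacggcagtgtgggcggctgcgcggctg
Pmpcb, chr5:21736910-21737209, plus strand: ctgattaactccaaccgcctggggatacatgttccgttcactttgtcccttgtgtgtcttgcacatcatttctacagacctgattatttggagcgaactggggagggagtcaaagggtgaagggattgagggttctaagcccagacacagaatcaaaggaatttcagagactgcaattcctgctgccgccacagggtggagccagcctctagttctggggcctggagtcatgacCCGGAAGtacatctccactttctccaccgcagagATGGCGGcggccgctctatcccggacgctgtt

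The ETS letters stood in the windows of Pmpca, Pmpcb and Timm10b, and in 14 of the 32 import genes with a window (43.8%), against 9.93% of all 27025 genes with one. Those for YY1 were in 21.9% of the import genes and 4.69% of all genes, and those for NRF1 in 12.5% and 7.03%. Many of those genes were not measurable in this tissue. Windows were matched to 9936 of the 12807 tested genes, under 80% of them, so the shares among these are incomplete. They were 19.6% for ETS, 9.11% for YY1 and 14.9% for NRF1, so that the import genes lay below them for NRF1. The letters GGGGCGG of the GC box were in 43.8% of the import genes and 47.2% of those tested genes, CCAATC of the CCAAT box in 9.38% and 23.3%, and CACGTG of the E box in 18.8% and 11.6%. The subunits with opposite signs, Pmpca and Pmpcb, both held the ETS letters, and Timm13 held the NRF1 letters without them. Such matches are descriptions of letters, not of bound sites. The start of the annotated window can also differ from the start used in the tissue.

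The spread within the TJ group was uneven. TJ replicate 2 was the highest TJ library for 27 of the 33 tested genes, and for 25 of the 26 with a positive log2 fold change. The adipocyte list summed to 72061 FPKM in that library, to 40133 and 32437 FPKM in the other TJ libraries and to 18052 to 20622 FPKM in HFD. Fabp4 alone held 48299 FPKM in TJ replicate 2, 28658 and 21797 in the other TJ libraries and 12038 to 14495 in HFD. Of the 12 adipocyte genes, 11 had a log2 fold change above 0 for TJ against HFD, and Lep was at −0.96. The macrophage list of 13 genes, with none at 0, summed to 1159 FPKM in TJ replicate 2, to 2857 and 2433 FPKM in the other TJ libraries and to 3945 to 5612 FPKM in HFD. The stromal list of 5 genes, also with none at 0, was at 672 to 989 FPKM in TJ and at 1706 to 1837 in HFD. The lymphocyte list of 8 genes, of which Ms4a1 was at 0 in every library, summed to 12.4, 17.1 and 9.38 FPKM in TJ and to 4.71 to 6.23 in HFD. The endothelial list of 5 genes, with none at 0, was at 223, 243 and 372 FPKM in TJ and at 193 to 223 in HFD. In TJ the adipocyte and lymphocyte sums were thus above those in HFD and the macrophage and stromal sums below, each without overlap, the endothelial sums were apart by under 1 FPKM, and the part of these lists in the result was not tested. The import genes that passed 1 FPKM on average made up 0.200%, 0.221% and 0.201% of the summed FPKM of the TJ libraries, against 0.197%, 0.182% and 0.199% in HFD.

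The number of calls depended on single libraries. Without TJ replicate 2 it was 5, with 15.7% of all tested genes called, and the median log2 fold change went from 0.33 to 0.22. The values of 16 of the 33 genes came closer to 0 by over 1.5 times in that fit, such as Timm8b (0.90 to 0.59), Tomm7 (0.65 to 0.37) and Samm50 (0.25 to 0.07), that of Grpel1 moved away from 0 and that of Tomm20 changed sign. None of the 5 called values moved that far, and Timm17a lost its call while Timm8b gained one. Without TJ replicate 3 it was 13, where 26.5% of all tested genes were called. It was 0 without TJ replicate 1 and without each of HFD replicates 1, 2 and 3, fits in which 0 genes of the whole table were called, while the median was between 0.33 and 0.37. HFD replicate 1 held the germ cell transcripts and HFD replicate 2 the epididymis transcripts noted above. Without HFD replicate 2 the median was 0.33 and the lowest limma adjusted p was 0.109. Without HFD replicate 1 the median was 0.37 and the lowest limma adjusted p was 0.0550. Timm10b, Timm13 and Tomm6 were each called in 7 of 14 alternatives, Pmpca in 6 and Timm17a in 5, and none of the 5 changed sign.

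Short transcripts stood on the higher side. Over the 33 tested import genes the rank correlation between the log2 fold change for TJ against HFD and the longest annotated transcript was −0.46, and over 12725 tested genes with a known length it was −0.36. The 7 import genes under 1300 nt all had log2 fold changes above 0, with a median of 0.65. Of the 26 longer ones, 19 were above 0, with a median of 0.24. The genes share their libraries, so these are descriptions. With the length trend of all genes removed, the median of the import genes was 0.44 and that of all genes 0.05. The value of Timm17a went from 0.61 to 1.05 and that of Tomm70a from −0.58 to −0.17. Pmpca lost its call (−0.55, limma adjusted p = 0.0521), and Timm8b, Timm21 and Tomm34 gained one.

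**Figure D4:**
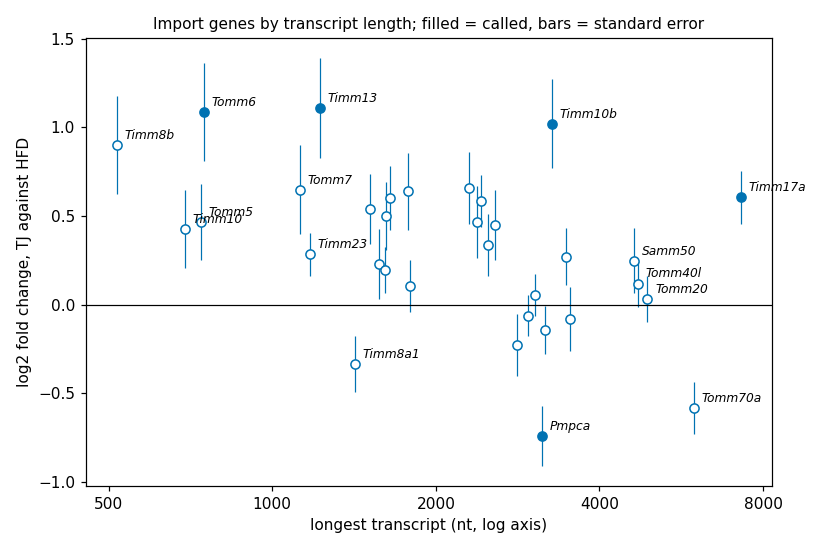
Log2 fold change for TJ against HFD (vertical axis, with standard errors) of the 33 tested import genes against the length of the longest annotated transcript (nt, log axis), with called genes filled. The 7 genes under 1300 nt lie above 0, and Pmpca and Tomm70a lie lowest among the longer ones.

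GT was compared with HFD to see whether the green tea extract moved the same machinery. No import gene was called among 33 tested, and 3.63% of all 12766 tested genes were. At an unadjusted p under 0.05 there were 4 import genes, beside 29.3% of all tested genes. The median log2 fold change was −0.02, against −0.12 for all genes, and its sign depended on the scaling, with 0.10 against −0.01 under median-of-ratios scaling. Between these groups 3 import genes were higher without overlap (background 12.3%) and 5 were lower (background 24.4%). The adipocyte list summed to 25889 to 30980 FPKM in GT, above HFD, and the macrophage and stromal lists to 1615 to 3645 and 982 to 1331 FPKM, below HFD, and their part here was not tested either.

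The extremes in GT were a receptor and a channel subunit. Tomm20 was at 25.9, 23.3 and 21.8 FPKM in GT against 29.9, 31.2 and 33.8 FPKM in HFD, with a log2 fold change of −0.41 (SE 0.10, limma adjusted p = 0.0653). All GT values were lower, and they lay near the 24.1 and 20.7 FPKM of ND replicates 2 and 3. Timm17a was at 64.6, 60.0 and 65.7 FPKM in GT, above every HFD library, with a log2 fold change of 0.41 (SE 0.10, limma adjusted p = 0.0647). Its order of group means was thus HFD, GT, TJ, and GT and TJ overlapped. Mtx2, Pmpca, Tomm70a and Samm50 were also lower in GT without overlap, with log2 fold changes of −0.32, −0.30, −0.26 and −0.19, and Timm21 and Hspa9 were higher with 0.20 and 0.08.

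TJ against GT tested directly whether the supplemented groups differed. No import gene was called, and only 0.148% of the 12187 tested genes were (18 genes), while 16 of the 33 import genes had an unadjusted p under 0.05, beside 24.6% of all tested genes. The log2 fold change was above 0 for 27 of the 33, with a median of 0.35, and for 46.8% of all genes, with a median of −0.03. Between these groups 17 import genes were higher in TJ without overlap (background 19.5%), and 2 were lower (background 14.9%). With equal FPKM sums 23 import genes and 30.8% of all genes were above 0, the import median was 0.14 and that of all genes −0.22. The adipocyte list summed to 32437 to 72061 FPKM in TJ and to 25889 to 30980 in GT. The lymphocyte list summed to 9.38 to 17.1 FPKM in TJ and to 5.10 to 8.38 in GT. The macrophage, stromal and endothelial sums overlapped, and the part of these lists was not tested.

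The genes at the top of this comparison were again small subunits. Timm10b held 31.4, 20.3 and 21.7 FPKM in GT, below its TJ range, with a log2 fold change of 1.16 (SE 0.24, limma adjusted p = 0.101). Tomm6 held 27.1, 23.2 and 18.4 FPKM in GT, with 1.11 (SE 0.25, limma adjusted p = 0.102). Over 14 alternatives the value of Tomm6 ran from 0.55 to 1.34 and that of Timm10b from 0.95 to 1.35. The values for Timm8b, Timm13 and Gfer were 0.93, 0.82 and 0.75. The genes lower in TJ without overlap were Pmpca, at 35.9, 32.8 and 36.0 FPKM in GT (log2 fold change −0.44, limma adjusted p = 0.150), and Tomm70a (−0.33, limma adjusted p = 0.222).

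HFD against ND asked how the high-fat diet itself bore on these genes, and the outcome turned on ND replicate 1. With all 6 libraries, 35 import genes were tested and none was called, where 1.77% of 14430 genes were. At an unadjusted p under 0.05 there were 2, beside 11.6% of all tested genes. The median log2 fold change was −0.15, against 0.07 for all genes. Between the groups, 5 import genes were higher in HFD without overlap (background 20.5%) and 3 lower (background 5.89%). Tomm20l and Timm8a2 passed the filter only through ND replicate 1, at 59.1 and 10.2 FPKM. Their log2 fold changes, −2.01 and −1.40, count in this median but rest on the library that let them in. Without ND replicate 1, 33 were tested and 2 were called, Tomm40l and Timm10, against a background of 15.4%. The median was then 0.05, against −0.02 for all genes. With all 6 libraries and equal FPKM sums it was 0.19, against 0.36 for all genes. The second fit rests on 2 ND libraries. The macrophage list summed to 213 to 775 FPKM in ND and to 3945 to 5612 in HFD, with 7 of its 13 genes called higher. No gene of the table was called with the replicate block or in the fits without an HFD replicate. The stromal list summed to 43.3 to 1040 FPKM in ND and to 1706 to 1837 in HFD. The part of these lists in the values for HFD against ND was not tested.

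Tomm40l, a paralogue of the pore Tomm40, was at 7.08, 11.8 and 15.2 FPKM in ND and at 25.4, 24.6 and 27.2 FPKM in HFD. It was apart with and without ND replicate 1, with log2 fold changes of 1.17 (limma adjusted p = 0.231) and 0.89 (limma adjusted p = 0.0183). GT and TJ were both near HFD, at 22.5 to 24.9 and 25.5 to 31.4 FPKM. Timm8a1 was at 1.37, 2.79 and 2.41 FPKM in ND and at 4.76 to 5.67 FPKM in HFD, also without overlap. Its log2 fold changes with and without ND replicate 1 were 0.96 (limma adjusted p = 0.320) and 0.76 (limma adjusted p = 0.0543), and it was called in 1 of 14 alternatives, with all 12 libraries in the fit (limma adjusted p = 0.0334). Timm10 was at 7.54 and 8.44 FPKM in ND replicates 2 and 3 and at 12.7, 12.8 and 13.7 FPKM in HFD, with a log2 fold change of 0.65 without ND replicate 1 (limma adjusted p = 0.0311). In ND replicate 1 it held 15.9 FPKM, above the HFD libraries.

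ND replicate 1 differed from its group in a pattern of its own. Of 34 import genes that averaged 1 FPKM or more in ND replicates 2 and 3, 14 were over 2-fold higher in ND replicate 1, 6 were over 2-fold lower and 14 lay between. Mtx1 reached 677 FPKM, against 34.6 and 46.0 FPKM in the other ND libraries, and Gfer reached 92.4 FPKM against 8.55 and 9.41. Tomm20l, a paralogue of Tomm20, held 59.1 FPKM there, 2.27 in ND replicate 3, 2.03 in HFD replicate 1 and at most 0.149 in the 9 other libraries, so that the libraries with the most germ cell transcripts were those with Tomm20l. Timm8a2 held 10.2 FPKM in ND replicate 1, 0.764 in ND replicate 3 and at most 0.0716 elsewhere. Tomm20l overlaps Timm9 on the opposite strand.

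In the same library Mtx2 was at 4.78 FPKM against 24.8 and 19.0, Timm23 at 15.3 against 72.9 and 54.9, Tomm20 at 7.98 against 24.1 and 20.7, and Hspa9 at 60.9 against 178 and 146. Partners thus moved apart there too, as Mtx1 was 16.8 times the mean of the other ND libraries and Mtx2 was 0.218 times. Over the 33 import genes tested in TJ against HFD, the difference of ND replicate 1 from the other ND libraries had a rank correlation of 0.66 with the log2 fold change for TJ against HFD, comparisons that share no library. Over 12725 tested genes that correlation was 0.02. The difference of ND replicate 1 was also related to transcript length, with a rank correlation of −0.47 over the import genes and −0.33 over all genes, beside −0.46 and −0.36 for TJ against HFD. Timm13, Tomm6, Timm10b and Timm8b were high in both. No cause was tested.

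**Figure D5:**
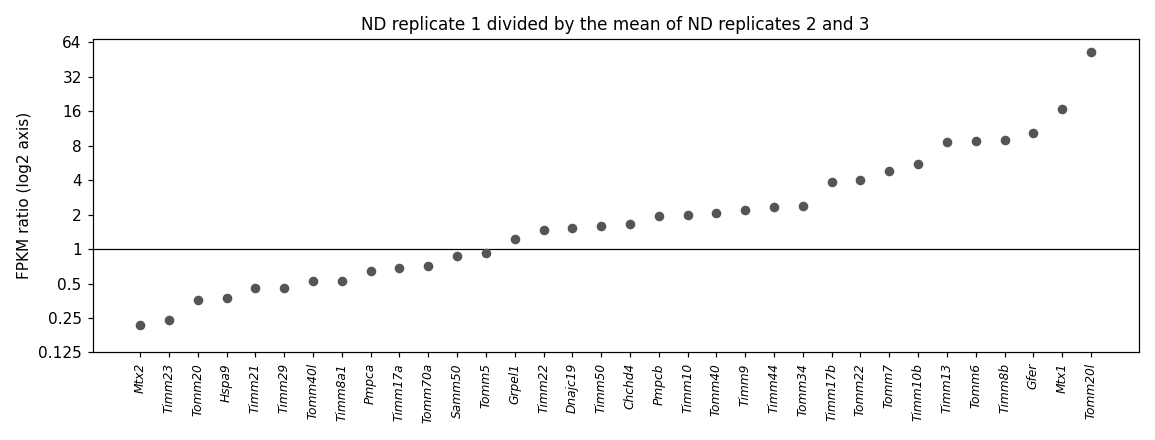
FPKM in ND replicate 1 divided by the mean of ND replicates 2 and 3 (log2 axis) for the 34 import genes that averaged 1 FPKM or more in the latter, in rising order, with the line at 1. The ratios run from 0.218 for Mtx2 to 52.1 for Tomm20l.

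Other genes of import and maturation were counted from a list of partner subunits, inner membrane organisers, insertases, matrix chaperones and proteases, of which 35 were tested. For TJ against HFD 4 were called, 3 higher and 1 lower, and the median log2 fold change was 0.22. This share of the list was below the 18.5% called over all tested genes. Romo1, a small subunit of the TIM23 channel, rose from 49.2, 42.7 and 49.6 FPKM in HFD to 119, 220 and 71.0 FPKM in TJ (log2 fold change 1.37, limma adjusted p = 0.0448). Immp1l, an inner membrane peptidase, and Apool, an organiser of the cristae junctions, rose with 0.76 each. Hsp90aa1, a cytosolic chaperone that delivers chains to Tomm70a, fell from 141, 116 and 113 FPKM to 69.1, 71.4 and 82.2 FPKM (log2 fold change −0.73, limma adjusted p = 0.0279). With the length trend removed Hsp90aa1 was at −0.52 and not called. The 4 calls of this list became 6 without TJ replicate 2, 9 with quantile normalization and 11 without TJ replicate 3. Of all tested genes, 15.7%, 20.8% and 26.5% were called in these fits. The calls of the list became 0 without the filter on low values, with all 12 libraries in the fit and with the replicate block. There 1.88%, 0.0078% and 9.35% of all tested genes were called. They were also 0 in the fits named above in which no gene of the table was called. The median was 0.07 without TJ replicate 2, 0.12 without HFD replicate 2 and −0.03 with equal FPKM sums. With equal sums 1 gene of the list was called higher and 2 lower, beside 494 and 1886 of all 12807 genes.

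For GT against HFD 1 of the 35 genes of that list was called, beside 3.63% of all tested genes. Hspe1, the lid of the matrix chaperonin, fell from 109, 92.4 and 85.6 FPKM in HFD to 69.6, 62.1 and 57.8 FPKM in GT (log2 fold change −0.59, limma adjusted p = 0.0493). Hspe1 was called in 3 of 14 alternatives: a pseudocount of 0.1, equal FPKM sums and the fit without GT replicate 1. For TJ against GT none was called, with extremes of −0.93 for Xpnpep3 and 1.67 for Chchd10. For HFD against ND the outcome again turned on ND replicate 1. With all 6 libraries none of the 35 was called, the median log2 fold change was 0.20, and the extremes were −1.76 for Pam16, which held 352 FPKM in ND replicate 1 and 19.5 and 19.4 FPKM in the other ND libraries, and 1.23 for Htra2. Without ND replicate 1 there were 6 called, against the background of 15.4%, and the median was −0.13. Those were Htra2 (1.08), Hspe1 (0.83) and Hspa8 (0.68), called higher in HFD, and Immp2l (−1.31), Clpx (−0.93) and Trap1 (−0.63), called lower, while Pam16 was at −0.39 (limma adjusted p = 0.391). Of 11 tested transcriptional regulators of mitochondrial biogenesis, 2 had a log2 fold change above 0 for TJ against HFD, where 40.8% of all tested genes were above 0. Of the 11, 1 was called lower, beside 11.1% of all tested genes. This was Pprc1, a coactivator of the PGC-1 family, which fell from 9.53, 10.3 and 12.5 FPKM in HFD to 6.06, 4.70 and 7.05 FPKM in TJ (log2 fold change −0.77, limma adjusted p = 0.0323). It was called in 5 of 14 alternatives: a pseudocount of 0.1, median-of-ratios scaling, equal FPKM sums and the fits without TJ replicate 2 or 3.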

How the data were processed

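The authors mapped reads from libraries of a kit that does not mark strand, and the deposited table holds FPKM per gene, computed with Cufflinks 2.1.1 with noncoding regions masked and with correction for multireads and fragment bias. The submitters' processing notes also name CASAVA 1.8.2 and STAR 2.4.0, whereas the methods of the study give another STAR version and name a human genome, although the identifiers are those of mouse. No column lacked a sample, and no libraries held identical values. Symbols, coordinates (GRCm38) and transcript lengths were taken from GENCODE mouse release 21 (22671 of 23474 identifiers had a symbol), and promoter windows from RefSeq.

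Each comparison was a limma fit (version 3.58.1, R 4.3.3) to log2(FPKM + 1) in the 6 libraries of its groups, using the mean-variance trend option of eBayes, and covered the genes averaging 1 FPKM or more there. The pseudocount understates changes of low genes. The procedure was tested on simulated data. Depth was estimated from the smallest steps between FPKM values. The p-values measure the spread between 3 individually housed mice a group. The alternatives were a pseudocount of 0.1, no filter, quantile normalization, median-of-ratios scaling, a fit to all 12 libraries, a replicate block, removal of the trend with transcript length (loess, span 0.5), the omission of each replicate, and, added after the data were seen, scaling to equal FPKM sums.

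Replicate numbers are shared by the groups in the labels, which state no pairing. The deviations of same-numbered libraries from their group means correlated at 0.547, 0.342 and 0.122 for HFD and ND, so the numbers were taken to pair these groups by the rule that each correlation be over 0.1, although HFD replicate 3 correlated best with ND replicate 2 (0.626). HFD replicate 1 and ND replicate 1, the pair at 0.547, both held the germ cell transcripts noted above, so this pairing is uncertain. For the other comparisons at least 1 of the correlations was below 0.1.

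Genes described with each library's value were the called ones, the highest and lowest member of each class by log2 fold change for TJ against HFD, the core subunit of each complex and members under 1 FPKM, 23 of 36. Others named, such as Timm8b, Tomm7, Tomm20, Timm21, Tomm40l and Timm10, were chosen after their values were seen. The genes outside the machinery most like it in level are not reported here. The members and lists were chosen with earlier results of these data known. Python 3.11.15, pandas 2.3.3, numpy 2.4.6, scipy 1.17.1 and matplotlib 3.10.9 were used.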

Additional observations from a re-analysis of the deposited data

How the results depend on the processing

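The 5 import genes called for TJ against HFD became 0 without the filter on low values (382 of 20343 genes called), 11 with quantile normalization (2663 of 12807) and 0 when all 12 libraries were fitted (1 of 12807), and the count ranged from 0 to 13 when 1 library was left out (0 to 3412 genes called). With equal FPKM sums the median log2 fold change for TJ was 0.088 against HFD and 0.14 against GT, and for HFD against ND it was 0.19. With the length trend removed it was 0.17 for GT against HFD. For HFD against ND the count was 2 when all 12 libraries were fitted (1131 of 14430 genes called) and 0 to 2 when 1 library was left out. The cause of these shifts was not tested.

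With the replicate block, which adds the replicate number to the fit, the count for TJ against HFD was 0. The lowest limma adjusted p was 0.0583 and 1198 of 12807 genes were called, although the numbers did not meet the rule for pairing there. For HFD against ND, where the rule was met but the pairing is uncertain, the count was 0 with and without the block. The calls over all genes went from 255 in the main fit, which had no block, to 0. The block changed no other count of import genes.

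Signs for TJ against HFD turned for Grpel1 (0.054 with median-of-ratios scaling, 0.057 with quantile normalization, 0.15 with the length trend removed, and −0.25 to 0.048 when 1 library was left out), Mtx2 (0.075, 0.011 and 0.11 under the first 3 of these), Timm29 (0.019 with quantile normalization, 0.052 with the length trend removed) and Hspa9 (−0.065 with quantile normalization, −0.20 with equal sums). With equal sums they also turned for Pmpcb (−0.053), Samm50 (−0.0011), Tomm20 (−0.21), Timm44 (−0.14), Tomm40l (−0.13) and Tomm22 (−0.018), 7 genes with Hspa9, and Tomm20 ranged from −0.028 to 0.11 when 1 library was left out. None of these genes was called. Over 31 results for single genes, 357 alternative values kept their sign and their side of the threshold, 38 lost a call and 23 gained one.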
